A study of Rattus norvegicus with 6 samples.

Results

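Mitochondria fuse, divide and are removed by a small set of proteins, and 10 rat genes of that set were read here by their symbols in a table of heart transcript counts with 17487 symbols: Mfn1, Mfn2, Opa1, Oma1, Dnm1l, Fis1, Mff, Mief1, Pink1 and Fundc1. Hearts came from 6 adult male Wistar rats, an outbred strain, with 1 library per animal. In the doxorubicin group, 3 rats had doxorubicin hydrochloride, an anthracycline cancer drug known for damage to the heart, at 3.75 mg/kg by tail vein once a week for 4 weeks. In the control group, 3 rats had the vehicle, 0.9% sodium chloride, on the same schedule. The labels do not give a genotype, the chamber of the heart sampled, the age in weeks or the interval after the last dose. The libraries held 2219685 to 3508282 counts. Control library 1 stood apart from the other controls, where the chi-square over symbols, divided by its degrees of freedom, was 14.8 and 13.5 against them and 4.28 between them, while doxorubicin pairs gave 11.7 to 15.5, so the values of the 10 genes and the list medians are also given without it where they moved by over 1.5 times. Levels are given as CPM, counts scaled to a common library total with TMM factors. CPM is not corrected for transcript length, so levels are compared between groups and not between genes.

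Fusion of the outer mitochondrial membrane depends on the mitofusins, large GTPases encoded by Mfn1 and Mfn2, and fusion of the inner membrane on OPA1, which the protease OMA1 cleaves when mitochondria lose their membrane potential. Division is carried out by the dynamin-related GTPase DRP1, encoded by Dnm1l, which is brought to the outer membrane by the adaptors MFF, MiD51 (Mief1) and FIS1. The kinase PINK1 marks damaged mitochondria for removal, while FUNDC1 is an outer membrane receptor that binds LC3 directly. Heart muscle cells are densely packed with mitochondria, and the balance of these steps is often studied in anthracycline injury.

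None of the 10 genes passed the adjusted threshold. Of the 10, 9 had counts and were tested, and 0 of 9 had a Benjamini-Hochberg adjusted p under 0.05 in edgeR's quasi-likelihood test, where 0.0543% of all 9205 tested symbols did. Only Mff, which was lower in doxorubicin, had an unadjusted p under 0.05, as did 8.1% of all tested symbols, 4.11% in that direction. Mff was also the only 1 of the 9 with separate groups, which 13.4% of all tested symbols had, 7.06% in that direction. DESeq2 and limma voom also called 0 of the 9, each with Mff alone at an unadjusted p under 0.05. Fundc1 was listed at 0 in every library. In whole heart tissue, fewer cells of a type and less RNA per cell cannot be told apart. Of the 9 tested genes 4 were higher and 5 lower in doxorubicin by the fitted change, where 52.1% of all tested symbols were higher, with a median log2 fold change of -0.14 against 0.02 over all tested symbols.

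**Figure D1:**
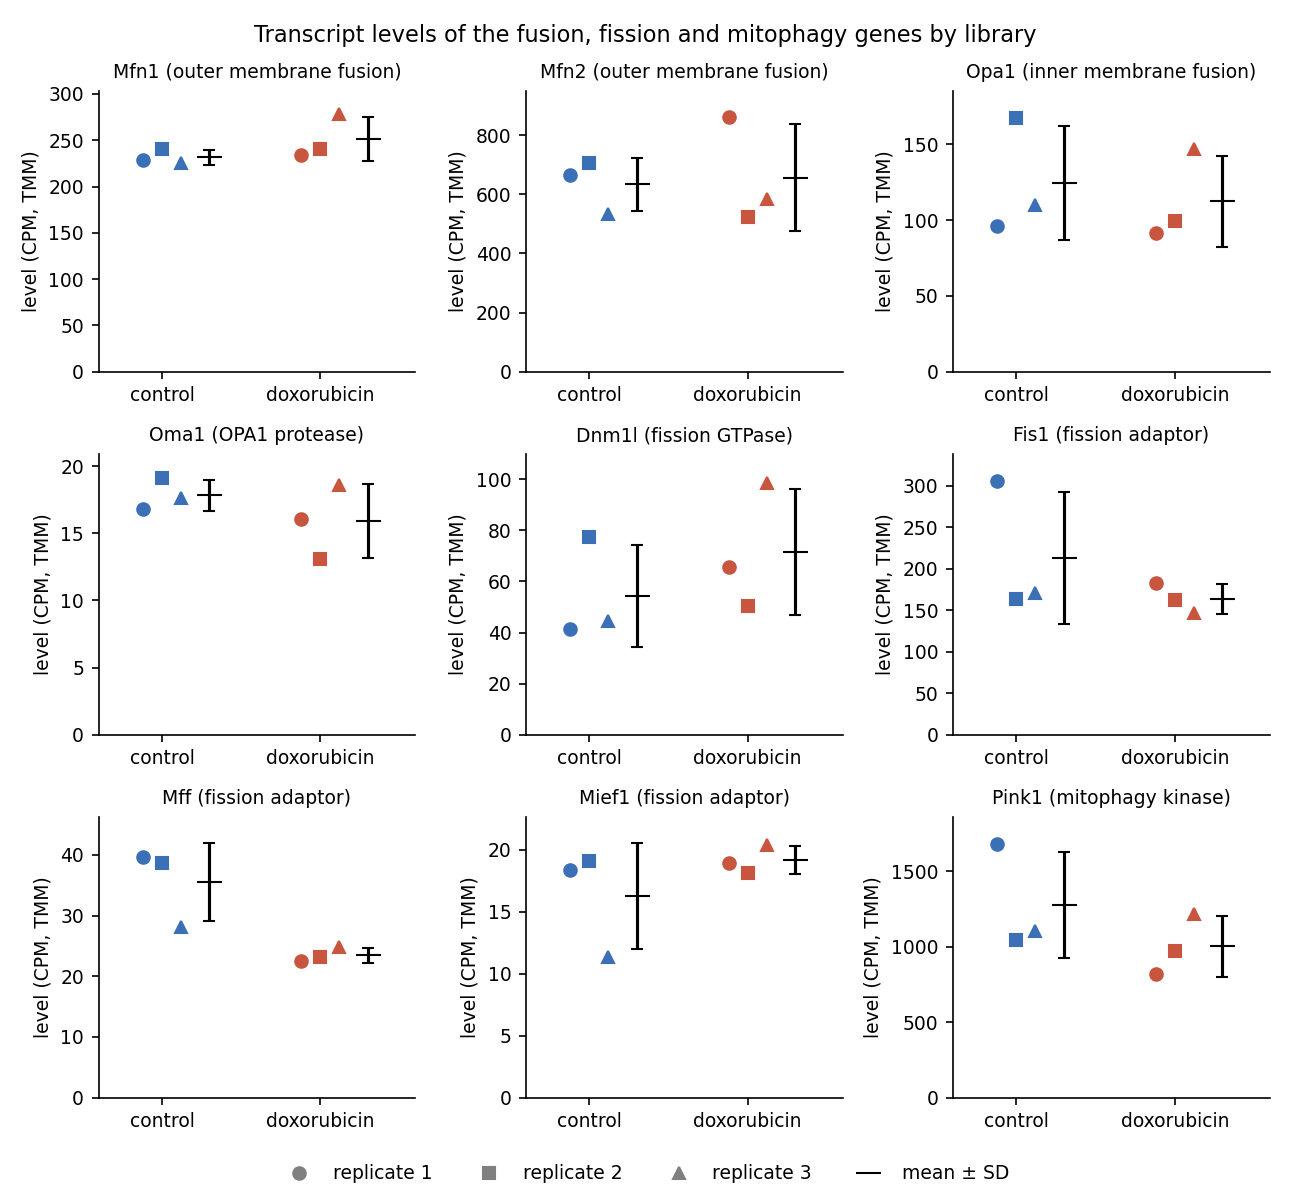
Levels (CPM, linear axis from 0) of the 9 genes with counts in each of the 6 libraries; symbols mark replicate numbers, and the bars give the mean ± SD of 3 libraries. The groups are apart only for Mff, with 22.5 to 24.8 CPM in doxorubicin and 28.1 to 39.7 CPM in control libraries, and control library 1 stands high for Fis1 and Pink1.

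Both mitofusin transcripts were plentiful in counts, and their group means were close, with a wide scatter of Mfn2 after doxorubicin. Mfn1 had 228, 240 and 226 CPM in the controls (libraries 1, 2 and 3, in this order throughout) against 235, 241 and 279 CPM after doxorubicin, from 541 to 945 counts per library. The groups overlapped narrowly, with doxorubicin libraries 2 and 3 above every control. Mfn1 had a log2 fold change of 0.12 (SE 0.17, 95% interval -0.25 to 0.49, adjusted p 0.894 in edgeR). Mfn2, whose product also tethers mitochondria to the sarcoplasmic reticulum, had 663, 705 and 532 CPM in the controls against 861, 522 and 585 CPM after doxorubicin. Doxorubicin library 1 was the highest of the 6 and doxorubicin library 2 the lowest, so the treated animals spanned the controls on both sides. Its log2 fold change was 0.05 (SE 0.21, 95% interval -0.41 to 0.51), and it became -0.19 without doxorubicin library 1, -0.06 without control library 3 and 0.09 without control library 1.

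The share of mitofusin counts that came from Mfn1 does not depend on how libraries are scaled. It was 25.6%, 25.4% and 29.8% in the controls against 21.4%, 31.5% and 32.3% after doxorubicin, with group means of 26.9% ± 2.48 and 28.4% ± 6.08 (SD, n = 3). Doxorubicin library 1 lay outside the control values on the low side and the other doxorubicin libraries on the high side. The Wilson 95% interval for doxorubicin library 1, 20.1% to 22.8%, covers counting error only.

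The inner membrane pair showed a wide spread within groups for Opa1 and few counts for Oma1. Opa1 had 96.2, 168 and 110 CPM in control against 91.2, 99.2 and 147 CPM after doxorubicin. Control library 2 was the highest, and the groups overlapped over most of their range. For Opa1 the log2 fold change was -0.14 (SE 0.24, 95% interval -0.66 to 0.37), and it turned to 0.13 without control library 2 and was -0.29 without control library 1. Oma1 rested on 42 to 63 counts per library, with 16.8, 19.1 and 17.6 CPM in control against 16.0, 13.1 and 18.6 CPM after doxorubicin. Doxorubicin libraries 1 and 2 lay below every control, and doxorubicin library 3 lay among them. Its log2 fold change was -0.16 (SE 0.26, 95% interval -0.73 to 0.40), and it was -0.03 without doxorubicin library 2 and -0.28 without doxorubicin library 3.

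Dnm1l, the fission GTPase gene, had the largest upward estimate of the 9 and did not pass the test. Its levels were 41.2, 77.3 and 44.6 CPM in control against 65.5, 50.2 and 98.7 CPM after doxorubicin. Control library 2 lay above doxorubicin libraries 1 and 2, and only doxorubicin library 3 was above every control. In edgeR its log2 fold change was 0.40 (SE 0.28, 95% interval -0.20 to 1.01, adjusted p 0.748). Single animals set this value: it was 0.11 without doxorubicin library 3, 0.25 without control library 1 and 0.75 without control library 2, where the unadjusted p was 0.02 and the edgeR adjusted p 0.45.

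The adaptors that bring DRP1 to the outer membrane gave estimates in both directions, and none passed the adjusted threshold. Mff, a tail-anchored adaptor, had 39.7, 38.7 and 28.1 CPM in control against 22.5, 23.1 and 24.8 CPM after doxorubicin, from 70 to 104 counts per library. All 3 doxorubicin values lay below the lowest control, and the doxorubicin libraries were close to each other, with means of 23.4 ± 1.18 CPM against 35.5 ± 6.41 CPM (SD, n = 3). The log2 fold change of Mff was -0.59 (SE 0.23, 95% interval -1.08 to -0.10), a fold of 0.664, with an unadjusted p of 0.0211 and an adjusted p of 0.498 in edgeR. The unadjusted p was 0.0604 without control library 1, 0.074 when the second control was left out, and 0.0547 without either the first or the second doxorubicin library. The direction was kept in all 15 alternatives, with log2 fold changes from -0.74 to -0.49 and adjusted p from 0.498 to 0.908. Mff stood on 3 rows of the table, of which 1 row held 97.7% of its counts, 1 held 2.32% and 1 was listed at 0. How reads shared between those rows were counted is not given in the sources used here, so its level may be incomplete.

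Mief1 encodes MiD51, an adaptor that can recruit DRP1 on its own. It had 18.3, 19.1 and 11.4 CPM in control against 18.9, 18.1 and 20.3 CPM after doxorubicin, from only 40 to 69 counts per library. Control library 3 was low, and the other 2 controls lay among the doxorubicin libraries. Mief1 had a log2 fold change of 0.25 (SE 0.28, 95% interval -0.35 to 0.84), which was 0.03 without control library 3 and 0.36 without control library 1. Fis1, a small tail-anchored protein of the outer membrane, had 305, 163 and 171 CPM in control against 182, 162 and 147 CPM after doxorubicin. Control library 1 was far above the other 5 libraries, which lay within 147 to 182 CPM. Fis1 had a log2 fold change of -0.38 (SE 0.23, 95% interval -0.88 to 0.12), and -0.03 without control library 1.

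Counts of Mff set against those of Mief1 in the same library gave a measure free of scaling, chosen after the values were seen and therefore given with no test. The Mff share of the summed counts was 68.4%, 66.9% and 71.2% in the controls against 54.3%, 56.1% and 54.9% after doxorubicin. The doxorubicin libraries all lay below the controls, with means of 55.1% ± 0.917 against 68.8% ± 2.18 (SD, n = 3). Since Mff had a lower and Mief1 a higher estimate, the separation of this share is not an independent result. Each share came from 129 to 153 counts. The Wilson 95% interval of control library 3, 63.2% to 78.1%, lay above those of doxorubicin libraries 1 and 3, which were 45.7% to 62.6% and 47.0% to 62.6%. In the other pairs of a control and a doxorubicin library the intervals overlapped. These intervals cover counting error only and not differences between animals. Against Fis1 the Mff share did not separate the groups, with 11.5% to 19.1% in control and 11.0% to 14.4% in doxorubicin libraries. For Dnm1l against Fis1 the share ranged from 11.9% to 32.1% in control and from 23.6% to 40.2% in doxorubicin libraries. For Opa1 against Oma1 it ranged from 85.1% to 89.8% in control and from 85.0% to 88.8% in doxorubicin libraries.

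**Figure D2:**
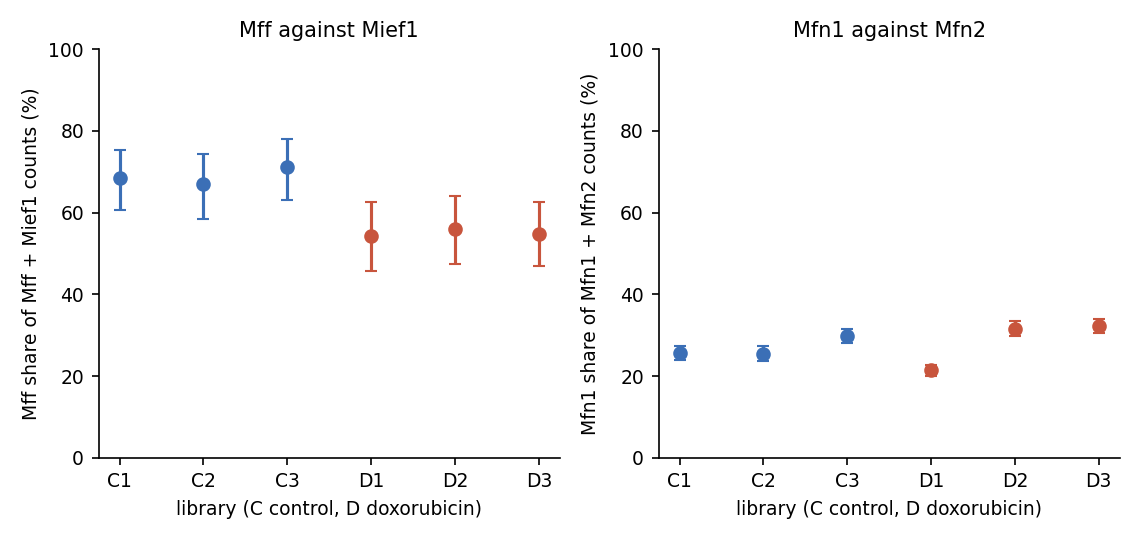
Share of counts (%, axis from 0 to 100) of Mff in Mff plus Mief1, left, and of Mfn1 in Mfn1 plus Mfn2, right, for control (C1 to C3) and doxorubicin (D1 to D3) libraries, with Wilson 95% intervals for counting error. The Mff shares are 66.9% to 71.2% in control and 54.3% to 56.1% in doxorubicin, while the Mfn1 shares of the groups overlap.

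Pink1 encodes the kinase that builds up on mitochondria whose protein import fails. It had 2353 to 4396 counts per library, the most of the 10 genes except in doxorubicin library 1, where Mfn2 had more, and levels of 1679, 1045 and 1102 CPM in control against 818, 969 and 1215 CPM after doxorubicin. Doxorubicin libraries 1 and 2 lay below every control, and doxorubicin library 3 lay above control libraries 2 and 3. For Pink1 the log2 fold change was -0.35 (SE 0.22, 95% interval -0.83 to 0.13, adjusted p 0.727 in edgeR). Without control library 1 it was -0.10.

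Control library 1 was thus the highest library for 3 of the 9 genes, Fis1, Mff and Pink1, and the lowest for Dnm1l. Doxorubicin library 3 was the highest for Mfn1, Dnm1l and Mief1 and the lowest for Fis1. Control library 1 also held the highest mean log2 CPM of 71 tested nuclear-encoded subunits of oxidative phosphorylation, 9.65 against 9.14 and 9.28 in the other controls and 8.94, 9.13 and 8.95 after doxorubicin. It also held the most transcripts of blood, 7056 CPM summed over 4 tested markers against 648 to 2548 CPM in the other 5 libraries. The atrial marker Myl7 had 164 CPM in control library 1 against 2.06 to 6.42 CPM in the other 5 libraries. Myl4, another atrial marker, had 68.3 CPM there against 5.30 to 26.0 CPM. Nppa, listed with the atrial markers, was instead highest in doxorubicin library 1, at 3252 CPM, with 444 CPM in control library 1. Sln, also on that list and below the count filter, had 22.91, 0 and 16.75 CPM in control. After doxorubicin Sln had 1.93, 0.312 and 0 CPM. The part of such differences in the values of the 9 genes was not tested. For 7 of the 9 genes the difference between group means on the log2 scale was smaller than the range of the 3 controls, the exceptions being Mfn1 and Mff.

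**Figure D3:**
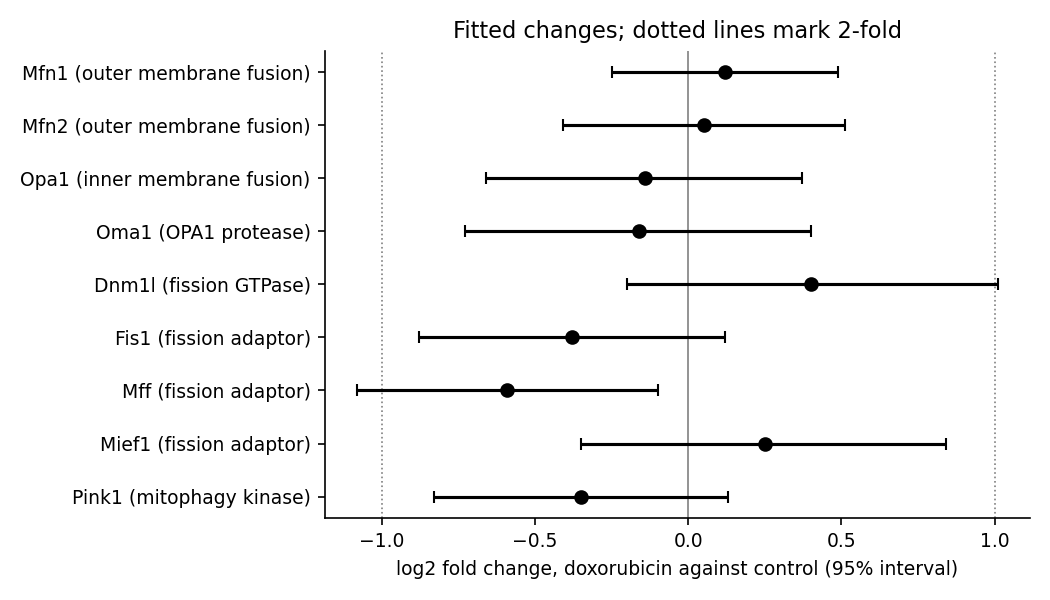
Log2 fold change of doxorubicin against control for the 9 tested genes from edgeR (points) with 95% intervals (bars); dotted lines mark a 2-fold change. Only the interval of Mff, -1.08 to -0.10, leaves out 0, before adjustment for multiple tests, and 7 of the 9 intervals lie within 2-fold in both directions.

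The size of change that these data leave possible differed by gene. The 95% intervals of 7 genes, Mfn1, Mfn2, Opa1, Oma1, Fis1, Mief1 and Pink1, lay within 2-fold in both directions. As folds of the control level, the interval was 0.842 to 1.40 for Mfn1, 0.753 to 1.42 for Mfn2, 0.563 to 1.09 for Pink1 and 0.542 to 1.09 for Fis1. The interval of Dnm1l reached 2.01 at its upper end, and that of Mff reached 0.473 at its lower end.

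The receptor gene Fundc1 gave no measurement. It was listed at 0 in all 6 libraries, and so were the X-linked genes Hprt1 and Pgk1, which most cells use. In the GRCr8 assembly, used here only to assign symbols to chromosomes, Fundc1 is X-linked, and 490 of 492 protein-coding symbols of the X chromosome in the table were at 0 in every library (99.6%). On the 20 autosomes 2051 of 14492 such symbols were at 0 (14.2%), with a range of 8.42% to 19.2% between autosomes. The reason was not tested, and no statement on Fundc1 in these hearts can be drawn from the table. Its paralog Fundc2, which has close copies in the rat genome that could share its reads, was counted with 48.9, 48.0 and 36.9 CPM in control against 41.1, 53.0 and 43.3 CPM after doxorubicin, and a log2 fold change of 0.04 (SE 0.21).

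**Figure D4:**
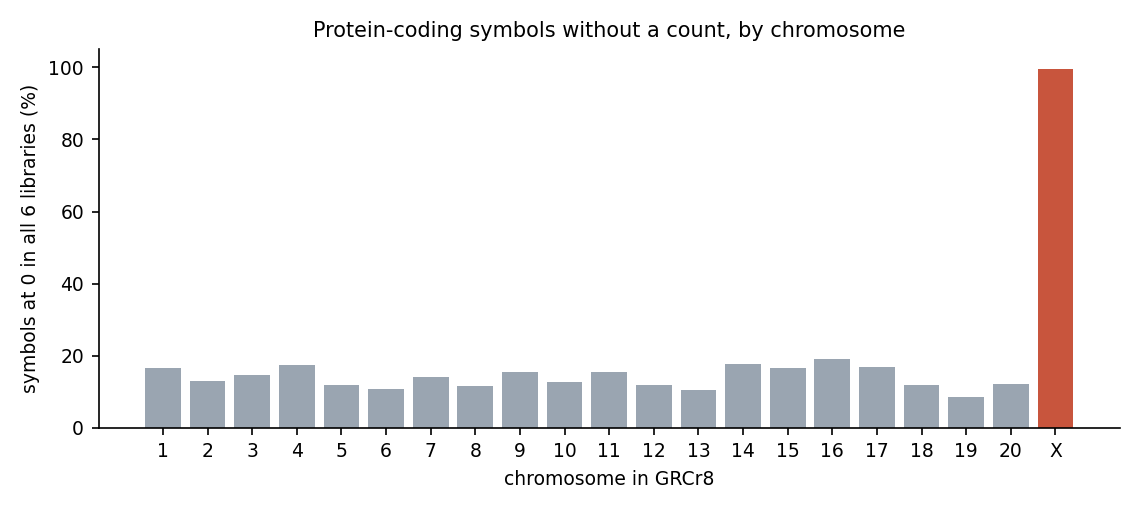
Share (%) of protein-coding symbols with 0 counts in all 6 libraries, by chromosome in the GRCr8 assembly. The bar for X, which holds Fundc1, stands at 99.6%, and the autosomes lie between 8.42% and 19.2%.

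Other genes of the same processes were read from 5 lists with 71 genes in all. Of these, 6 were not found under their symbols and are not analysed here, 3 were listed at 0 (Mtch2 and the X-linked Apoo and Apool), 2 were below the count filter, and 60 were tested. None of the 60 passed the adjusted threshold in edgeR, DESeq2 or limma voom, the smallest edgeR adjusted p being 0.527. At an unadjusted p under 0.05 there were 2 (3.33%, against 8.1% of all tested symbols), and DESeq2 and voom also gave 2 each. Groups were apart for 6 of the 60, all lower in doxorubicin, which is 10% against 13.4% of all tested symbols in either direction and 7.06% in that direction.

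Among outer membrane fusion genes, Miga2, whose product is an outer membrane protein that promotes fusion, had 141, 149 and 165 CPM in control against 96.3, 140 and 92.2 CPM after doxorubicin. The groups were apart by a small gap at doxorubicin library 2, and the log2 fold change was -0.47 (SE 0.20, unadjusted p 0.032, edgeR adjusted p 0.55). The list's other 3 tested genes, Marchf5, Mul1 and Slc25a46, had overlapping groups.

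Of 14 tested genes for inner membrane shape and OPA1 processing, 11 were lower by the fitted change and 3 higher, with a median log2 fold change of -0.13, and -0.07 without control library 1, and none had an unadjusted p under 0.05 in edgeR. The groups were apart for 3 of the 14, Chchd3, Micos13 and Chchd6, all lower in doxorubicin, as they were for 7.06% of all tested symbols in that direction. These encode subunits of the MICOS complex, which holds the necks of the cristae, as do Immt and Micos10, whose groups overlapped, with log2 fold changes of 0.09 (SE 0.20) and -0.30 (SE 0.20). Chchd3 had 433, 432 and 456 CPM in control against 282, 387 and 396 CPM after doxorubicin, a log2 fold change of -0.31 (SE 0.19). Micos13 had 402, 262 and 268 CPM in control against 227, 257 and 257 CPM after doxorubicin, a log2 fold change of -0.33 (SE 0.20). For Micos13 the gap between the groups was small and control library 1 was again the highest. Chchd6 rested on 23 to 41 counts per library, with a log2 fold change of -0.60 (SE 0.35). Yme1l1, the other protease that cuts OPA1, had a log2 fold change of 0.32 (SE 0.27) with overlapping groups.

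Among 10 tested fission genes, 4 were higher and 6 lower by the fitted change, with a median log2 fold change of -0.08, and -0.03 without control library 1. Mtfp1, an inner membrane protein that promotes fission, had 74.1, 56.9 and 60.8 CPM in control against 54.2, 46.8 and 44.2 CPM after doxorubicin. Its groups did not overlap, and the log2 fold change was -0.40 (SE 0.20, unadjusted p 0.062, edgeR adjusted p 0.624).

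Of 27 tested mitophagy genes, 13 were higher and 14 lower by the fitted change, with a median log2 fold change of 0.00, and 0.06 without control library 1. The hypoxia-inducible receptor gene Bnip3 had 223, 173 and 186 CPM in control against 192, 245 and 366 CPM after doxorubicin. Doxorubicin library 1 lay among the controls, and the log2 fold change was 0.46 (SE 0.23, unadjusted p 0.0624, edgeR adjusted p 0.624). Its relative Bnip3l had a log2 fold change of -0.09 (SE 0.17). Map1lc3b, which encodes an LC3 protein of the autophagosome membrane, had 523, 482 and 478 CPM in control against 371, 436 and 448 CPM after doxorubicin, a log2 fold change of -0.24 (SE 0.17), and was the only gene of this list whose groups did not overlap.

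Among 5 transport genes, Kif5b, the heavy chain of a kinesin motor that carries mitochondria along microtubules, had 51.9, 123 and 86.6 CPM in control against 121, 106 and 237 CPM after doxorubicin. Doxorubicin library 3 was the highest, as it was for Dnm1l, and the groups overlapped. The log2 fold change was 0.83 (SE 0.33, unadjusted p 0.0259, edgeR adjusted p 0.527). Fundc2, Immt, Micos10, Bnip3, Bnip3l, Yme1l1, Map1lc3b and Kif5b are named after their values were seen.

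**Figure D5:**
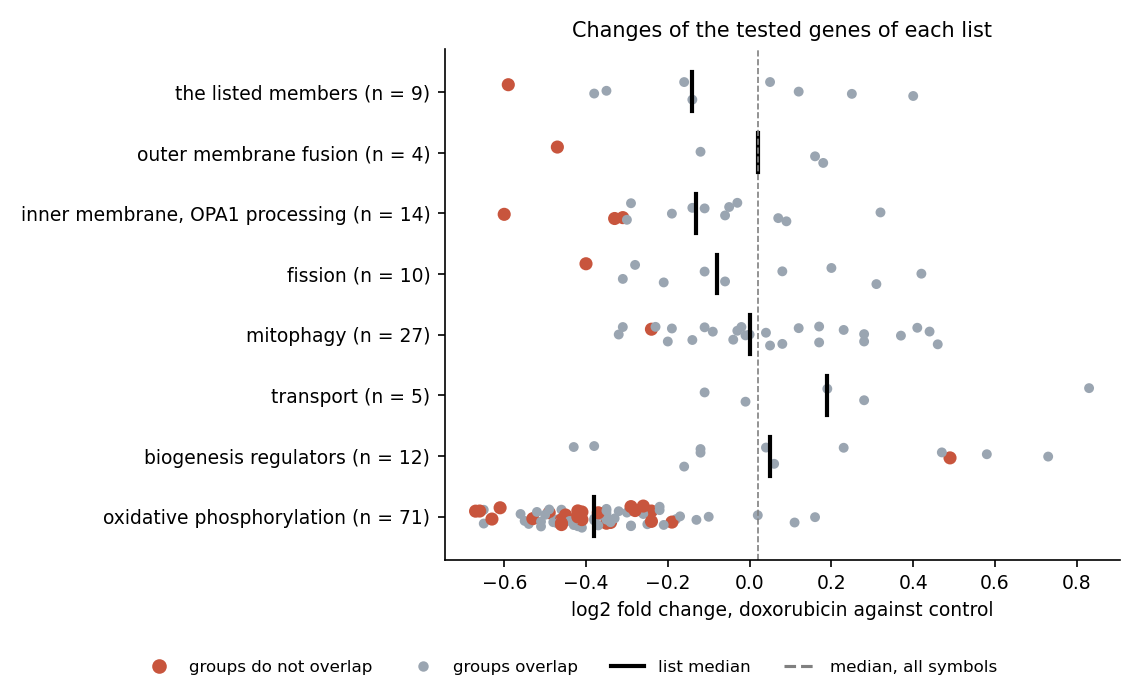
Log2 fold change of each tested gene (points) in the 9 members, the 5 wider lists and 2 comparison lists; large red points mark genes whose groups do not overlap, black bars list medians, and the dashed line the median of all tested symbols (0.02). The median is -0.14 for the members and -0.38 for oxidative phosphorylation subunits, and -0.03 and -0.19 without control library 1. The wider lists have medians of 0.02 (outer membrane fusion), -0.13 (inner membrane), -0.08 (fission), 0.00 (mitophagy) and 0.19 (transport). That of the biogenesis regulators is 0.05. Differences between lists were not tested.

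Transcripts for the respiratory chain were read in the same libraries. Of 71 tested oxidative phosphorylation subunits, 68 were lower and 3 higher by the fitted change, with a median log2 fold change of -0.38, which was -0.19 without control library 1. The groups were apart for 24 of them, all lower, where 7.06% of all tested symbols were apart in that direction. In edgeR 0 passed the adjusted threshold and 19, all lower, had an unadjusted p under 0.05, which 4.11% of all tested symbols had in that direction. The median of the 9 fusion, fission and mitophagy genes was -0.14, and -0.03 without control library 1. The difference between the lists was not tested.

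Markers of cell types were read in the same fit. The 10 cardiomyocyte markers were all counted, and their summed level was 131400 to 150600 CPM in control and 105200 to 121400 CPM in doxorubicin libraries. By the fitted change 9 of 10 were lower in doxorubicin, and 1, Ryr2, was past the adjusted threshold. The changes were uneven, with log2 fold changes of -1.62 for Ryr2, -0.73 for Myh6 and -0.59 for Mb. Myl2 had -0.02, Tnnc1 -0.05, Tnnt2 -0.11 and Pln 0.17. The list median was -0.29, and -0.18 without control library 1. Macrophage markers summed to 267 to 282 CPM in control and 322 to 528 CPM in doxorubicin libraries, with 9 of 10 higher. Of all tested symbols 52.1% were higher. The groups do not overlap in the cardiomyocyte and macrophage sums, and the part of these markers in the values of Mff was not tested. Endothelial sums overlapped, with 1215 to 1399 CPM in control and 1028 to 1401 CPM in doxorubicin libraries. Fibroblast sums did too, with 2565 to 2853 and 2082 to 3560 CPM. Sums of smooth muscle and pericyte, blood and atrial markers also overlapped. The skeletal muscle list had 1 tested gene, Acta1, with 600 to 1026 CPM in control and 1137 to 2647 CPM in doxorubicin libraries. Its genes Myh2, Myh4, Mylpf and Tnni2 were below the count filter, with 0 to 8 counts per library. The values of Acta1 are therefore those of a single gene and no measure of skeletal muscle. Of the other markers, the X-linked Alas2 for blood and Tnnt3 for skeletal muscle, which stood on 13 rows, were listed at 0. The blood marker Hba-a1 had 1313 to 10867 counts per library.

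Of 9003 other tested symbols, the 3 whose log2 CPM followed that of Mff most closely over the 6 libraries were Rab28, Nme6 and Memo1, with Pearson's r of 0.979, 0.978 and 0.978 and Spearman's rho of 0.94, 1.0 and 0.77. Without the 2 libraries farthest from the median of Mff, r was 0.97, 0.89 and 0.84. These are the highest of many values over few libraries and describe the libraries only.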

How the data were processed

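Per the submitters' processing notes, FastQC, Trimmomatic, STAR and HTSeq were used with the build mRatBN7.2; versions, strand setting and annotation are not given in the sources used here. Per the labels' protocols, libraries were made with a Watchmaker mRNA kit and sequenced on a NovaSeq instrument. The authors deposited raw read counts per feature, 18473 rows, with 2219685 to 3508282 counts per library. Rows of a symbol were summed (599 symbols had several). The floor of 3 counts was 0.852 to 1.33 CPM. The Wilson intervals of the shares and the floors cover counting error only. The intervals of the log2 fold changes rest instead on the SE from the edgeR test between the groups.

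The test was edgeR 4.0.16 (R 4.3.3) quasi-likelihood with TMM, robust dispersion and filterByExpr (minimum count 10, total 15) over 6 libraries, with Benjamini-Hochberg adjustment over 9205 symbols at 0.05. The SE was the log2 fold change divided by the root of F. Log2 CPM used a prior count of 2. The fits were tested on simulated data. The 10 genes and the lists were chosen with earlier results of these data known. Named genes were the 10, genes of the wider lists past the adjusted threshold, the 5 per direction with the smallest p and groups apart, and the 3 symbols most like the member with the smallest p. The alternatives were other scaling factors, no filter, a mean CPM of at least 5, DESeq2 1.42.0, voom from limma 3.58.1, the replicate number as a block, the most-counted row per symbol, and leaving out each library. Symbols were matched to RefSeq genes of GRCr8 (89.1%) for chromosomes only. Counts over the wider lists include 1 gene whose own result is not reported here.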

Additional observations from a re-analysis of the deposited data

How the results depend on the processing

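The cause of each change below was not tested. The count of the 9 genes past the adjusted threshold was 0 in all 15 alternatives, and so was that of the 60 genes of the wider lists. Over all symbols 5 passed, against 0 with library size only (713 at an unadjusted p under 0.05), 61 with no filter, 1 at a mean CPM of at least 5, 74 in DESeq2, 0 in limma voom (740 at an unadjusted p under 0.05) and 0 to 35 when 1 library was left out, 35 being without doxorubicin library 2. At an unadjusted p under 0.05 there was 1 of the 9 genes, and 0 to 1 when 1 library was left out; for the wider lists there were 2, and 0 to 5. Leaving out 1 library, the log2 fold change of Mfn2 ranged from -0.19 to 0.20 and reversed to -0.06 without control library 3 and to -0.19 without doxorubicin library 1, and that of Opa1 ranged from -0.37 to 0.13, reversed at 0.13 without control library 2. The other 7 genes kept their direction in all 15 alternatives. With the replicate number as a block 13 symbols and 0 of the 9 genes passed, and Mff had a log2 fold change of -0.58 at an edgeR adjusted p of 0.705. Same-numbered libraries are different animals, and the correlation of their deviations averaged -0.0734 (-0.185 to 0.0211). These values show no pairing by number, though with 3 libraries per group they cannot exclude one. Depth limits Oma1 and Mief1 most, at 40 to 69 counts per library.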

Other observations

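Nuclear regulators of mitochondrial genes gave a mixed picture beside the fusion and fission genes. Of 12 tested regulators, 7 were higher and 5 lower by the fitted change, with a median log2 fold change of 0.05, and -0.03 without control library 1. In edgeR 0 passed the adjusted threshold and 1 had an unadjusted p under 0.05, as did 8.1% of all tested symbols. Nrf1, a transcription factor for respiratory chain genes, had 7.25, 6.66 and 7.95 CPM in control and 9.98 to 10.9 CPM in doxorubicin libraries, from 15 to 34 counts. Nrf1 was the only 1 of the 12 whose groups did not overlap, where 13.4% of all tested symbols had such groups. Its log2 fold change was 0.49 (SE 0.33, edgeR adjusted p 0.732). Esrrg, an orphan nuclear receptor gene, had 48.6 CPM in doxorubicin library 3 and 15.3 to 23.1 CPM in the other 5 libraries. Its relative Esrra had a log2 fold change of -0.38 (SE 0.20, edgeR adjusted p 0.644). These genes were named after their values were seen.

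Of the 492 protein-coding symbols that GRCr8 places on the X chromosome, 2 had any count, Il13ra1 with 152 and Rpl39 with 1 over the 6 libraries together. The X-linked respiratory chain genes Ndufa1, Ndufb11 and Cox7b were listed at 0, as Fundc1, Apoo and Apool were. Not all genes at 0 were assigned to X: Atp5mc3, Cox6a2 and Mtch2, each on 2 rows, were listed at 0 as well.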
